A study of Homo sapiens with 8 samples.

Results

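The proteasome genes described here are the genes of the deposited expression table whose symbols run from PSMA to PSMG with a number, 48 of 22504 genes. They encode the catalytic core, the regulatory particle, the immunoproteasome subunits, the activators and inhibitor, and the factors that assemble the complex. Membership was decided by the symbol. Poly(A) RNA was sequenced from U2OS cells, an established human osteosarcoma line, in 4 groups with 2 libraries each. The groups were cells that overexpressed the actin mutant G13R in normal growth, the same kind of cells after serum stimulation, and GFP-expressing control cells under these 2 conditions. The labels do not name the actin gene that was mutated, the promoter or clone used, the length of serum treatment or any withdrawal of serum before it. Nor do they tell separate cultures from repeat libraries within a group, and the spread behind each p-value may be technical.

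The proteasome degrades proteins tagged with ubiquitin. Its core is a barrel of alpha and beta rings in which PSMB5, PSMB6 and PSMB7 carry the proteolytic sites, and the regulatory particle, made of a base and a lid, recognises, unfolds and feeds substrates into the barrel. Interferon gamma induces the replacement subunits PSMB8, PSMB9 and PSMB10 and the cap proteins PSME1 and PSME2, which favour peptides suited to antigen presentation, whereas the transcription factor NFE2L1 is known to raise the genes of the standard complex together when proteasome activity is short.

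Values are FPKM, a fragment count normalized to transcript length and to the library's mapped fragments. Sums over all genes were 496166 to 559496 FPKM per library, and 12065 to 12568 genes reached 1 FPKM. The 2 GFP serum libraries lay farthest apart, with 186 genes more than 2-fold apart against 87 to 102 in the other groups. ACTB, a cytoplasmic actin gene, was at 2543 to 2779 FPKM in the GFP libraries and at 7949 to 11245 FPKM in the G13R libraries. Of 9 osteoblast lineage markers, SP7, IBSP and COL1A2 were under 1 FPKM in every library, and the endothelial markers were all under 1 FPKM.

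Proteasome transcripts were abundant. The 48 genes together made up 1.03 to 1.25% of all FPKM in a library, and the median gene of the 46 that passed the filter of 1 FPKM in at least 2 libraries had a mean of 104.1 FPKM, against 12.35 FPKM for all genes tested. PSMD2, the base subunit that binds ubiquitin shuttle proteins, was the most abundant on this scale, which is normalized to length, with a mean over the 8 libraries of 708 FPKM. PSMA7, an alpha ring subunit, followed at 570.3 FPKM and PSMB4, a beta ring subunit without proteolytic activity, at 253 FPKM. PSMA7 ranged from 519.5 to 656 FPKM and PSMD2 from 475 to 898 FPKM over the libraries, so these neighbours in the order overlapped. PSMB3, PSMC3, PSMB1, PSMB7 and PSMA5 came next, at means between 213 and 236 FPKM, and their library ranges overlapped as well. The lowest of the tested genes was PSMB9, with a mean of 3.36 FPKM, and its highest library, at 5.84 FPKM, lay below the lowest library of the next gene, PSMD5, at 10.7 FPKM.

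**Figure D1:**
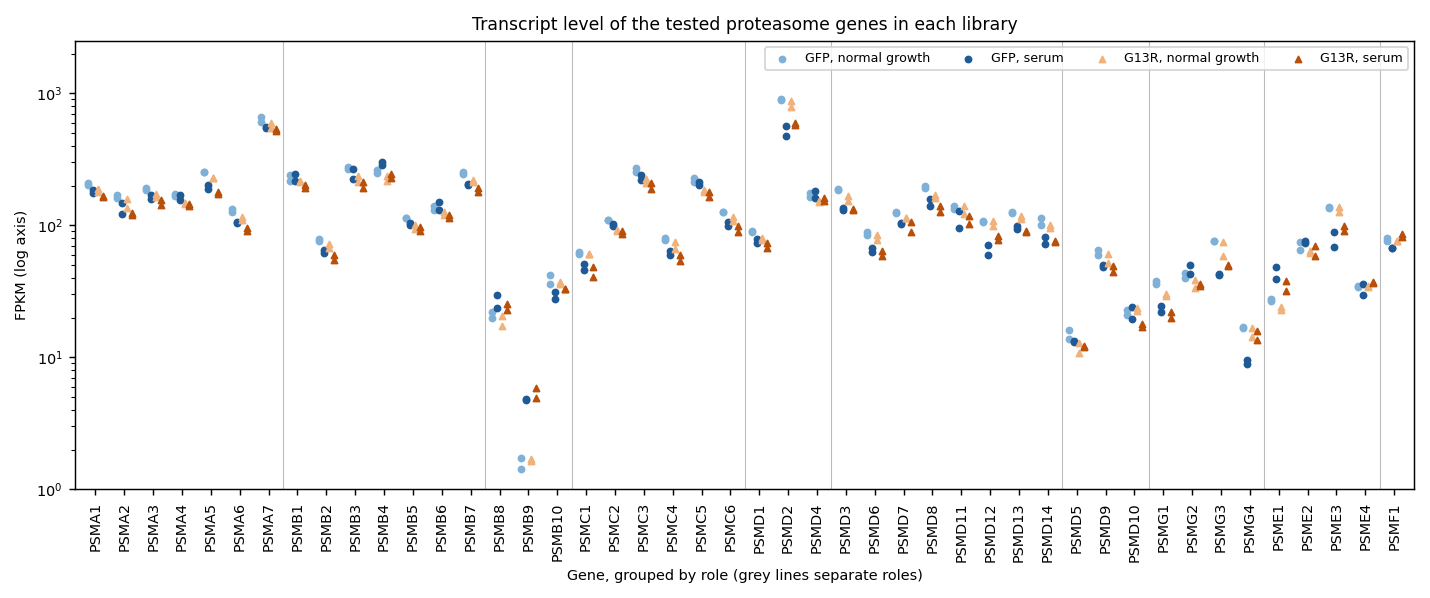
FPKM of the 46 tested proteasome genes in each of the 8 libraries, on a log axis, with genes grouped by role (each point is 1 library). PSMD2 and PSMA7 stand highest, and PSMB9, at 1.42 to 5.84 FPKM, stands lowest.

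The other 2 genes did not pass the filter. PSMA8, the alpha subunit of the testis form, was listed at 0 in all 8 libraries. PSMB11, the thymus subunit, was listed at 0 in 6 libraries and at 0.0457 and 0.0623 FPKM in the GFP serum libraries.

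Serum was followed by lower levels of many proteasome genes in GFP cells. Of the 46 tested genes, 21 (45.7%) fell and 2 (4.35%) rose at a limma adjusted p under 0.05, where over all 12996 genes tested 15.7% were called lower and 14.9% higher. The median log2 fold change of the 46 was -0.26, against 0.01 over all genes. Both serum libraries lay below both normal-growth libraries for 33 of the 46 genes and above them for 4 of 46. Of all genes tested, 33% lay below and 33.3% above. The lower calls included 7 of 8 lid genes, 3 of 4 core assembly chaperones, 3 of 6 base ATPases, 2 of 7 alpha subunits and 2 of 7 constitutive beta subunits. PSMB9 and PSME1 were the 2 that rose. RNA of whole cultures was measured, so fewer cells of a type and less RNA per cell cannot be told apart. Quantile normalization changed the split from 2 higher and 21 lower to 3 and 13. Lower calls over all genes went from 2044 to 1924 in that setting. Leaving out GFP normal replicate 1 or 2 left 1 library in that group, and fewer proteasome genes were then called lower. Lower calls over all genes dropped as well, so that loss was not limited to proteasome genes. The median of the proteasome genes stayed negative without either library.

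In G13R cells 13 of 46 genes (28.3%) fell and 2 (4.35%) rose after serum, with 4.62% of all genes called lower and 8.26% called higher. All 13 were also lower in GFP cells, where they made up 13 of the 21, and the 2 that rose were again PSMB9 and PSME1. The median was -0.16 on the log2 scale, against 0.04 over all genes. Both serum libraries lay below both normal-growth libraries for 29 of the 46 genes, 12 overlapped and 5 lay above, where 26.4% of all genes lay below and 34.3% above. The lower calls comprised 6 of 8 lid genes, 2 of 7 alpha subunits, 2 of 4 core assembly chaperones, PSMC1, PSMD2 and PSME3, and 0 of 7 constitutive beta subunits, of which 2 were lower at an unadjusted p under 0.05. The count was 2 and 0 without G13R normal replicate 1 and 2, 0 and 1 without G13R serum replicate 1 and 2, and 7 without either GFP normal library. Lower calls over all genes went from 601 to 144, 134, 119 and 113 in the first 4 of these settings, so the loss was not limited to proteasome genes. Of the 15 calls, PSMB9 alone was kept in every alternative in which it was tested.

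**Figure D2:**
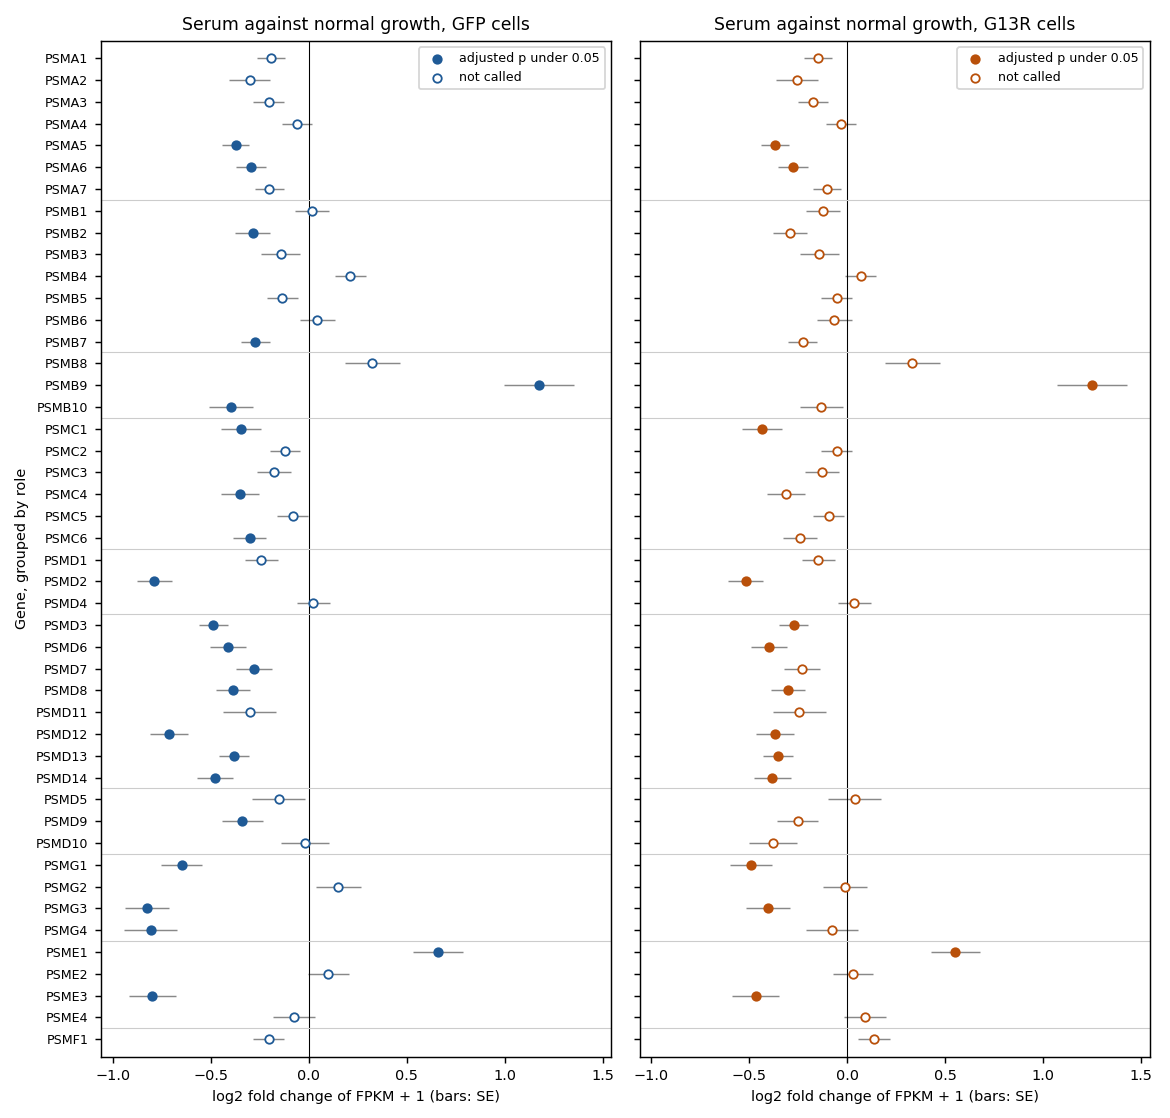
Log2 fold change of FPKM + 1 with its SE, serum against normal growth, for the 46 tested genes in GFP cells (left) and G13R cells (right), grouped by role; filled points had an adjusted p under 0.05. The points of the lid and of PSMD2 lie left of 0 in both panels, and PSMB9 and PSME1 lie farthest to the right.

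Among the alpha ring genes, which form the gate of the barrel, PSMA5 and PSMA6 fell in both kinds of cells. For each gene, the values of replicates 1 and 2 in normal growth come first and those after serum second. PSMA5 was at 253 and 255 FPKM in GFP cells in normal growth against 202 and 189 after serum, and at 227 and 229.5, then 174 and 179 FPKM in G13R cells. Serum and normal-growth libraries of PSMA5 did not overlap in either, and the log2 fold changes were -0.37 ± 0.07 (SE) with an adjusted p of 0.00347 and -0.37 ± 0.07 with an adjusted p of 0.00947. PSMA6 changed by -0.30 ± 0.08 (adjusted p = 0.0158) in GFP cells and -0.28 ± 0.08 (adjusted p = 0.0418) in G13R cells. Of the 50-base windows of its longest coding transcript in GENCODE v29, 85.6% occur in other genes. Its FPKM is therefore uncertain, though its deposited span overlaps no other gene. PSMA7 was at 609 and 656 FPKM in GFP cells in normal growth against 546 and 553 after serum, and at 548 and 591, then 519.5 and 539.8 in G13R cells. Its log2 fold changes of -0.20 ± 0.07 and -0.10 ± 0.07 were not called (adjusted p = 0.058 and 0.37). The remaining 4 tested alpha genes had log2 fold changes between -0.30 and -0.06 in GFP cells and between -0.26 and -0.03 in G13R cells, and none was called.

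Of the 7 constitutive beta ring genes, PSMB2 and PSMB7 were called in GFP cells and none in G13R cells. PSMB4 was at 247 and 264 FPKM in GFP cells in normal growth against 289 and 304 after serum, the one beta ring gene with both serum libraries above both normal-growth libraries. Its log2 fold change of 0.21 ± 0.08 was not called (adjusted p = 0.0658), and in G13R cells it was at 216 and 235, then 228 and 244 FPKM, with overlapping groups (0.07 ± 0.08, adjusted p = 0.607). PSMB2, the beta ring gene of lowest level, fell in GFP cells from 75.5 and 79.3 to 61.6 and 64.8 FPKM (-0.29 ± 0.09, adjusted p = 0.0313). In G13R cells PSMB2 was at 67.7 and 72.6, then 55.1 and 59.1 FPKM, also without overlap, with the same size of log2 fold change, -0.29 ± 0.09, and an adjusted p of 0.0538.

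The 3 constitutive catalytic genes differed in level. PSMB5, the chymotrypsin-like subunit, was at 113 and 113 FPKM in normal growth and 101 and 105 after serum in GFP cells, and at 94.6 and 100.04, then 96.6 and 90.8 in G13R cells. PSMB6, the caspase-like subunit, was at 131 and 140.4, then 131 and 149 FPKM in GFP cells and 119 and 127, then 114 and 120.2 in G13R cells. Neither was called in either serum response. PSMB7, the trypsin-like subunit, was the most abundant of the 3 and fell in GFP cells from 244 and 252 to 207 and 203 FPKM (-0.27 ± 0.07, adjusted p = 0.0188). In G13R cells PSMB7 was at 212 and 222, then 178 and 192 FPKM (-0.23 ± 0.07, adjusted p = 0.0688), and its groups did not overlap in either.

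Their interferon-inducible counterparts were less abundant and did not move together. PSMB9, which replaces PSMB6 and lies at chr6:32811913-32847364 in hg19, was at 1.42 and 1.72 FPKM in GFP cells in normal growth against 4.82 and 4.78 after serum. In G13R cells it was at 1.71 and 1.65, then 4.92 and 5.84 FPKM. Every serum library was above every normal-growth library, and PSMB9 rose by 1.18 ± 0.18 on the log2 scale in GFP cells (adjusted p = 0.00121) and by 1.25 ± 0.18 in G13R cells (adjusted p = 0.0025). It remained scarce: PSMB9 made up 1.15% ± 0.10 (SD, n = 2) of the PSMB6 level in normal growth and 3.44% ± 0.33 after serum in GFP cells, and 1.37% ± 0.09 and 4.58% ± 0.40 in G13R cells. The deposited span of PSMB9 overlaps those of its neighbours PSMB8 and TAP1, so reads of these genes may not be cleanly divided.

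PSMB8, which replaces PSMB5, was at 19.9 and 22.02, then 23.8 and 29.5 FPKM in GFP cells, and at 17.4 and 20.7, then 22.8 and 25.6 in G13R cells. Its serum libraries lay above its normal-growth libraries in both, but the log2 fold changes of 0.32 ± 0.14 and 0.33 ± 0.14 had adjusted p-values of 0.103 and 0.142. PSMB10, which replaces PSMB7, went the other way in GFP cells, from 36.1 and 42.4 to 31.5 and 27.5 FPKM (-0.40 ± 0.11, adjusted p = 0.0224), a call that was lost without GFP normal replicate 2 or GFP serum replicate 2. In G13R cells PSMB10 was at 35.7 and 36.95, then 33.1 and 33.03 FPKM (-0.13 ± 0.11, adjusted p = 0.466). Together the 3 inducible genes made up 11.05% ± 0.72 of the summed FPKM of the 6 catalytic genes in GFP cells before and 11.98% ± 0.10 after serum, and 11.5% ± 0.20 and 13.7% ± 0.18 in G13R cells (SD, n = 2).

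**Figure D3:**
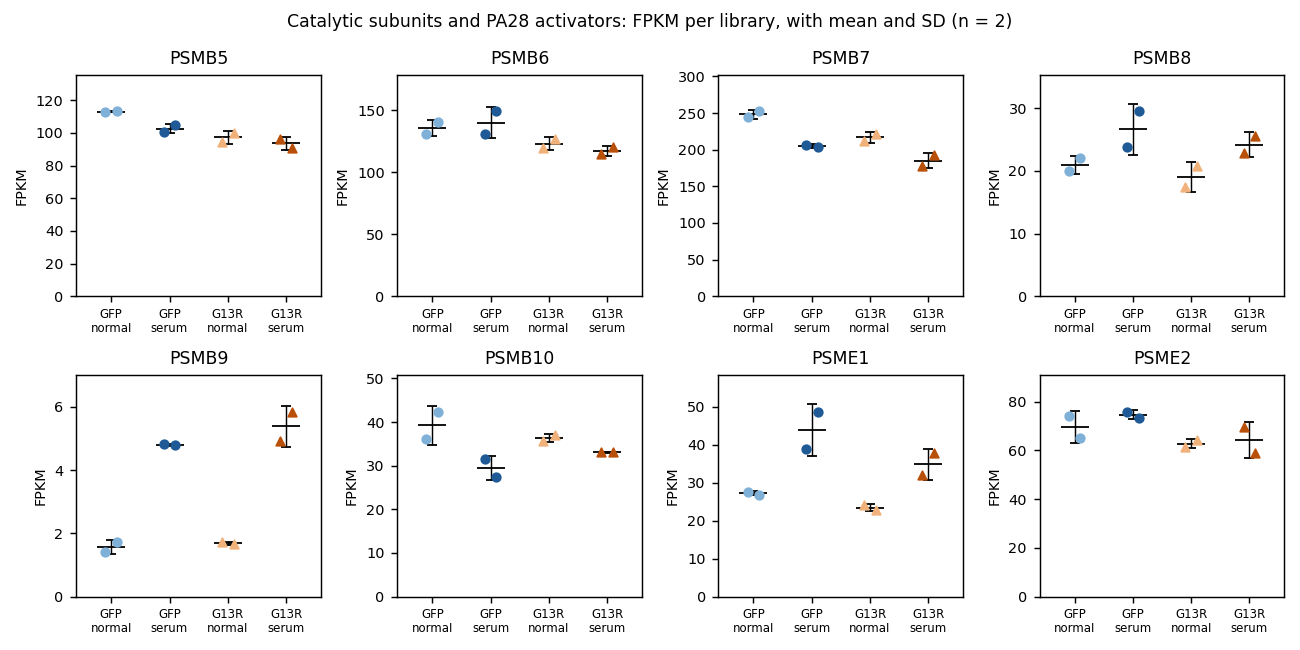
FPKM of the 3 constitutive and 3 inducible catalytic genes and of the PSME1 and PSME2 activators in each library, with mean and SD (n = 2), on axes from 0. PSMB9 and PSME1 stand higher after serum in both kinds of cells, and PSMB5, PSMB6, PSMB8 and PSME2 show no call in either serum response.

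The activators differed from one another. PSME1 (hg19 chr14:24605367-24608176), a subunit of the interferon-inducible cap, was at 27.6 and 26.8 FPKM in GFP cells in normal growth against 38.99 and 48.7 after serum, and at 24.1 and 22.8, then 32.1 and 37.8 in G13R cells. It rose by 0.66 ± 0.13 (adjusted p = 0.00397) and 0.55 ± 0.13 (adjusted p = 0.021) on the log2 scale, with no overlap in either. PSME2, its partner in the cap, changed by 0.10 ± 0.10 and 0.03 ± 0.10 and was not called (adjusted p = 0.497 and 0.884). PSME3 (hg19 chr17:40976402-40995523), which forms a nuclear cap of its own, was the most abundant activator and fell in both, from 136 and 138 to 89.8 and 68.3 FPKM in GFP cells and from 126 and 138 to 99.5 and 91.1 in G13R cells. The log2 fold changes of PSME3 were -0.80 ± 0.12 (adjusted p = 0.00115) and -0.47 ± 0.12 (adjusted p = 0.0314), and PSME4, a single-chain cap, was not called, at -0.08 ± 0.11 and 0.09 ± 0.11.

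Leukocytes hold much immunoproteasome, and their markers were low. Of the markers, PTPRC, CD3E, CD4, CD14 and HLA-DRA were under 1 FPKM in every library, CD68 was not called, and LCP1 fell after serum in GFP cells (-0.63 ± 0.21) and in G13R cells (-1.01 ± 0.21). The sum of the 8 markers on the list was 15.5 to 15.9 FPKM in GFP cells in normal growth, 14.6 to 16.03 after serum, and 16.2 to 18.2 and then 15.05 to 16.5 in G13R cells. Summed levels of 5 epithelial markers were at 691 to 785, then 895 to 1052 FPKM in GFP cells and at 534 to 594, then 696 to 699 in G13R cells. These sums were almost wholly KRT8 and KRT18, with KRT18 called higher in both (0.46 ± 0.10 and 0.44 ± 0.10) and KRT8 in GFP cells (0.32 ± 0.11), while CDH1 had log2 fold changes of -1.09 ± 0.43 and -0.84 ± 0.43, without a call. The 9 osteoblast lineage markers summed to 601 to 689, then 693 to 848 FPKM in GFP cells and 469.9 to 512, then 546 to 592 in G13R cells. SPARC made up most of that sum (519 and 599, then 605 and 765 FPKM in GFP cells) and was not called, SPP1 (-0.10 and -0.29) and COL1A1 (-0.07 and -0.24) had values below 0 without a call, and ALPL rose in G13R cells (0.70 ± 0.16). The part of these markers in the serum responses of the proteasome genes was not tested.

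Promoter sequence was read from RefSeq (GRCh38.p14) over 250 bases before to 50 after each gene's start, which matched 42 of the 48 members. The interferon response core, GAAA repeated after 2 bases of any kind and sought on both strands, was present for 7 of 42 members (16.7%) and for 4.38% of all gene symbols in the table. The members were PSMA4, PSMB4, PSMB8, PSMB10, PSME1, PSME2 and PSMG4. The windows of the interferon-inducible members and of TAP1 are shown because these genes are known as interferon targets, with the core in capitals on the strand of the gene, where GAAA in the reverse orientation reads TTTC. PSMA7, PSMB1, PSMB6, PSMB7, PSMD4 and PSMG3 were not matched.
PSMB8 (chr6:32844032-32844061, minus strand): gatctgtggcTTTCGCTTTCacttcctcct
PSMB10 (chr16:67936852-67936881, minus strand): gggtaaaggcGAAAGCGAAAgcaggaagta
PSME1 (chr14:24136189-24136218, plus strand): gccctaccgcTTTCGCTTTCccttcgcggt
PSME2 (chr14:24146619-24146648, minus strand): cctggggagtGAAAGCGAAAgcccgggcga
TAP1 (chr6:32853819-32853848, minus strand): aggcggccgcTTTCGATTTCgctttcccct
Of these, PSME1 rose in both kinds of cells, TAP1 rose and PSMB10 fell in GFP cells alone by call, and PSMB8 and PSME2 were not called. Genes with a match to the same core at their start thus gave different calls. PSMB9, which rose most, has no such match in its own window. A second match in the TAP1 window, TTTCGCTTTC, overlaps the one in capitals and is partly left in lower case. Both lie between the starts of TAP1 and PSMB9, just outside the PSMB9 window. The absence for PSMB9 therefore holds for that window only. The 250 bases before the start of PSMB9 are shown with CCAAT and a match to the antioxidant response core in capitals.
PSMB9 (chr6:32853942-32854191, plus strand): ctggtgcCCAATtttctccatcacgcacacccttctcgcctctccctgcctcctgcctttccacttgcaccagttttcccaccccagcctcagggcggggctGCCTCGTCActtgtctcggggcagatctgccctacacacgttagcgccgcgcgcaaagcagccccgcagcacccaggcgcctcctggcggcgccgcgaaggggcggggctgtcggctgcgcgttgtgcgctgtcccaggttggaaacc

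In the base of the regulatory particle the ATPases PSMC1, PSMC4 and PSMC6, which unfold substrates, fell in GFP cells. PSMC3, the most abundant ATPase, was at 254 and 272, then 222 and 242 FPKM in GFP cells and 209.7 and 225, then 187 and 211 in G13R cells and was not called (-0.18 ± 0.09 and -0.13 ± 0.09). PSMC1, the least abundant, fell from 62.5 and 60.9 to 50.7 and 46.1 FPKM in GFP cells (-0.35 ± 0.10, adjusted p = 0.0276) and from 60.7 and 60.5 to 40.9 and 48.3 in G13R cells (-0.44 ± 0.10, adjusted p = 0.0214). The groups of PSMC1 did not overlap. Of its 50-base windows, 97.5% occur in other genes of GENCODE v29, so its level is uncertain, though its deposited span overlaps no other gene. PSMC4 changed by -0.35 ± 0.10 (adjusted p = 0.0217) and PSMC6 by -0.30 ± 0.08 (adjusted p = 0.0227) in GFP cells, and neither was called in G13R cells (-0.31 ± 0.10 and -0.24 ± 0.08).

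PSMD2 (hg19 chr3:184016497-184026842) gave the lowest adjusted p of all proteasome genes in the GFP serum response. It was at 887 and 898 FPKM in GFP cells in normal growth against 561 and 475 after serum, and at 794 and 879.9, then 575 and 591 FPKM in G13R cells. No serum library reached a normal-growth library, and the log2 fold changes were -0.79 ± 0.09 (adjusted p = 0.000271) and -0.52 ± 0.09 (adjusted p = 0.00583). PSMD2 stood at 7.11-fold ± 0.03 of the lid median in GFP cells before serum and 5.31-fold ± 0.56 after it, and at 7.32-fold ± 0.40 and 6.26-fold ± 0.35 in G13R cells (SD, n = 2). PSMD1, the other large scaffold of the base, was at 91.2 and 89.5, then 79.3 and 73.2 FPKM in GFP cells and 79.7 and 76.9, then 67.6 and 73.7 in G13R cells, without a call (-0.24 ± 0.09 and -0.15 ± 0.09). PSMD4, a ubiquitin receptor, had log2 fold changes of 0.02 ± 0.08 and 0.04 ± 0.08 (adjusted p = 0.867 and 0.812).

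All 8 lid genes had serum libraries below their normal-growth libraries in both kinds of cells. PSMD12 (hg19 chr17:65334032-65362743), a scaffold subunit, was at 108 and 107, then 70.5 and 59.6 FPKM in GFP cells and 99.4 and 107, then 76.8 and 82.9 in G13R cells, with log2 fold changes of -0.72 ± 0.10 (adjusted p = 0.000702) and -0.37 ± 0.10 (adjusted p = 0.0363). PSMD3 (hg19 chr17:38137050-38154213), another scaffold, was at 185 and 189, then 132 and 134 FPKM in GFP cells and 153 and 165, then 132 and 131 in G13R cells (-0.49 ± 0.07, adjusted p = 0.00122, and -0.27 ± 0.07, adjusted p = 0.0392). PSMD14 (hg19 chr2:162164549-162268228), the deubiquitinase that removes ubiquitin chains from substrates, was at 113 and 101, then 80.9 and 71.8 FPKM in GFP cells and 96.2 and 101, then 74.7 and 76.3 in G13R cells (-0.48 ± 0.09, adjusted p = 0.00411, and -0.38 ± 0.09, adjusted p = 0.0257). The difference between the 2 responses was not called for any of the 3 (PSMD12 0.35 ± 0.14, PSMD3 0.22 ± 0.11 and PSMD14 0.10 ± 0.13).

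The other lid genes lay close together. PSMD8, the most abundant, was at 193 and 198, then 139.9 and 158 FPKM in GFP cells and 162 and 169, then 127 and 141 in G13R cells (-0.39 ± 0.09 and -0.30 ± 0.09). PSMD6, the least abundant, was at 89.5 and 84.04, then 67.2 and 62.8 in GFP cells and 77.9 and 84.7, then 58.4 and 64.4 in G13R cells (-0.41 ± 0.09 and -0.40 ± 0.09). PSMD13 was at 126 and 125, then 93.8 and 97.99 FPKM in GFP cells and 112 and 118, then 88.3 and 91.01 in G13R cells (-0.38 ± 0.08 and -0.35 ± 0.08). These 3 lid genes fell in both, with adjusted p-values between 0.00456 and 0.0485. PSMD7 fell in GFP cells alone by call (-0.28 ± 0.09, adjusted p = 0.0423, and -0.23 ± 0.09, adjusted p = 0.127 in G13R cells), and PSMD11 was not called (-0.30 ± 0.14 and -0.24 ± 0.14), its GFP serum libraries lying at 128 and 95.2 FPKM.

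**Figure D4:**
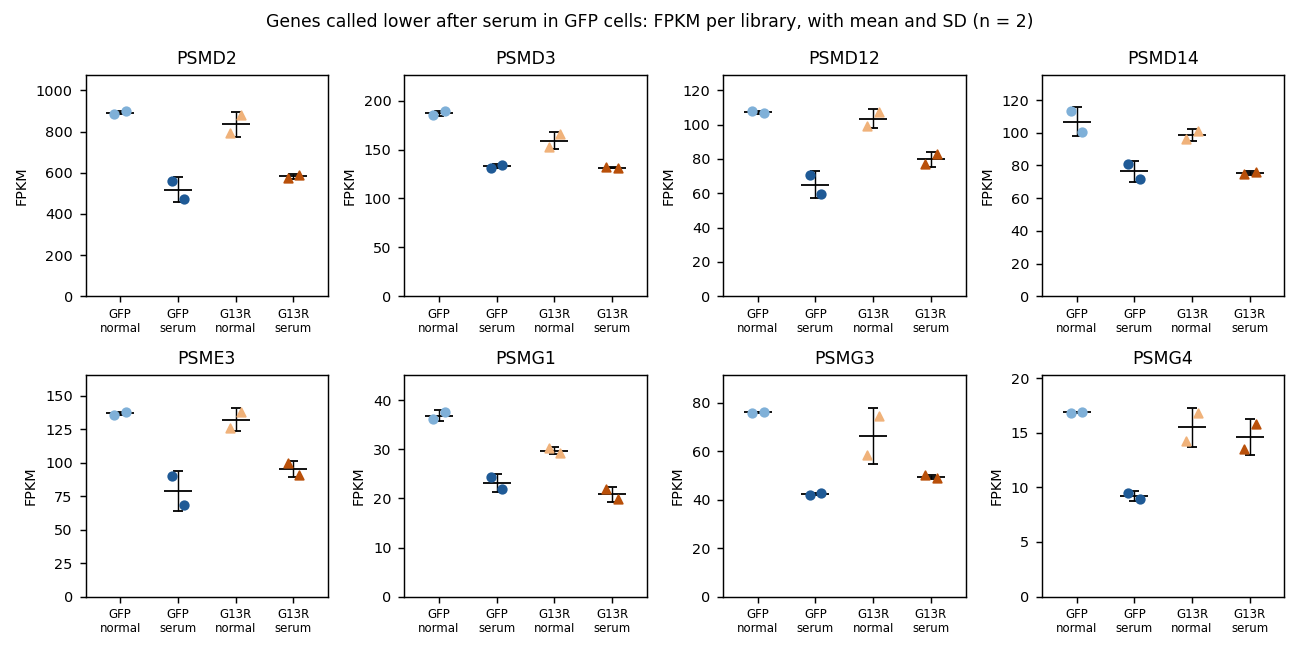
FPKM in each library, with mean and SD (n = 2), of 8 genes called lower after serum in GFP cells, on axes from 0. PSMD2 drops from 887 and 898 to 561 and 475 FPKM in GFP cells, and PSMG4 is the one panel in which the G13R groups overlap.

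Of the 4 core assembly chaperones, 3 fell in GFP cells. They work in pairs to build the alpha ring. PSMG3 (hg19 chr7:1606966-1610641) was at 75.9 and 76.4, then 42.2 and 42.8 FPKM in GFP cells and 58.3 and 74.6, then 50.1 and 48.9 in G13R cells (-0.83 ± 0.11, adjusted p = 0.000669, and -0.41 ± 0.11, adjusted p = 0.0409). Its partner PSMG4 (hg19 chr6:3231637-3303607) was at 16.8 and 16.9, then 9.51 and 8.90 FPKM in GFP cells (-0.81 ± 0.13, adjusted p = 0.00188). In G13R cells PSMG4 was at 14.2 and 16.8, then 13.5 and 15.8 FPKM, with overlapping groups (-0.08 ± 0.13, adjusted p = 0.743). PSMG1 (hg19 chr21:40546695-40555777) fell in both, from 36.1 and 37.7 to 24.4 and 21.9 FPKM in GFP cells and from 30.2 and 29.3 to 21.96 and 19.8 in G13R cells (-0.65 ± 0.11, adjusted p = 0.00174, and -0.49 ± 0.11, adjusted p = 0.0156). Its partner PSMG2 did not follow, at 0.15 ± 0.11 (adjusted p = 0.342) and -0.01 ± 0.11 (adjusted p = 0.962). The deposited span of PSMG3 overlaps its antisense gene and that of PSMG4 overlaps TUBB2B and SLC22A23, and no source used here gives the strand setting.

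Of the base assembly chaperones, which hold the ATPases before the base joins the core, PSMD9 was the most abundant and fell in GFP cells, from 65.1 and 59.6 to 48.2 and 49.8 FPKM (-0.34 ± 0.10, adjusted p = 0.0325). In G13R cells PSMD9 was at 51.5 and 60.4, then 48.9 and 44.6 FPKM (-0.25 ± 0.10, adjusted p = 0.139). PSMD5, the least abundant, was at 16.01 and 13.7, then 13.2 and 13.3 in GFP cells and 12.8 and 10.7, then 11.99 and 12.2 in G13R cells, with overlap in G13R cells only and no call. PSMD10, also known as gankyrin, changed by -0.02 ± 0.12 in GFP cells and -0.38 ± 0.12 (adjusted p = 0.0701) in G13R cells.

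The antioxidant response core TGACNNNGC, through which NFE2L1 and its relatives are known to act, was present on either strand for 15 of 42 members (35.7%) and 16.1% of all gene symbols. It was found for 5 of 19 matched members that fell in GFP cells, 8 of 19 that were not called and both that rose. Motifs were counted separately, and overlaps between them were not removed. Windows of members that fell are shown, with the core in capitals in either orientation.
PSMD3 (chr17:39980760-39980789, plus strand): tcccctttgtTGACTCGGCcatcggcctgc
PSMD12 (chr17:67366723-67366752, minus strand): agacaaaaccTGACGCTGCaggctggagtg
PSMG1 (chr21:39183615-39183644, minus strand): gcccagggcaTGACAGCGCgggcgggcggt
PSMC4 (chr19:39971182-39971211, plus strand): acagaggccgGCTTGGTCActatggaggag
The matching windows of PSMA4 and PSMB3, which were not called, are set beside them.
PSMA4 (chr15:78540650-78540679, plus strand): gtgggcacgaTGACTCTGCaccgcctcctc
PSMB3 (chr17:38752627-38752656, plus strand): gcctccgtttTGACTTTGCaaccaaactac
CCAAT was present for 20 of 42 members (47.6%) and 39.7% of all symbols, among them 9 of 19 that fell and 9 of 19 that were not called. PSMD3 holds both, and its 250 bases before the start are shown with CCAAT (as ATTGG) and the antioxidant core in capitals.
PSMD3 (chr17:39980557-39980806, plus strand): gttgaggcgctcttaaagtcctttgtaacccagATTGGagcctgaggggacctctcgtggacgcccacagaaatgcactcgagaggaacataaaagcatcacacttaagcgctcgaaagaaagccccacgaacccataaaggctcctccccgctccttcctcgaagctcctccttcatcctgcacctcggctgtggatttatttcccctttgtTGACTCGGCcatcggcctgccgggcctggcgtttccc
These matches describe letters only, and binding was not measured.

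The calls of PSMA6, PSMB2, PSMB7, PSMC1, PSMC4, PSMC6, PSMD6, PSMD7, PSMD8 and PSMD9 in GFP cells were each lost without GFP normal replicate 1 or GFP normal replicate 2, and those of PSMB2, PSMB7, PSMC1, PSMC4, PSMC6, PSMD7 and PSMD9 also without 1 of the GFP serum libraries. Shared sequence also makes the levels of PSMD7 (46.9% of 50-base windows), PSMB10 (38.9%), PSMD9 (35.8%), PSMB8 (28.9%) and PSMC6 (24.7%) uncertain. The PSMD7 call was lost without either G13R normal library too. The other 12 calls, PSMB10 aside, were kept in every alternative in which the gene was tested. These 12 were PSMA5, PSMB9, PSMD2, PSMD3, PSMD12, PSMD13, PSMD14, PSME1, PSME3, PSMG1, PSMG3 and PSMG4.

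G13R cells were then set against GFP cells in the same condition. These comparisons use the same libraries as the serum responses, so the 2 kinds of result are not independent. In normal growth 0 of 46 proteasome genes were called by limma, and 0.0462% of all genes were. At an unadjusted p under 0.05, 15 were lower in G13R cells and 0 higher. All genes were not counted at that threshold, so these counts are not shown to be particular to proteasome genes. The median log2 fold change was -0.15, against -0.07 over all genes, and 44 of 46 values were below 0. Both G13R libraries lay below both GFP libraries for 34 of the 46 genes and above for 0, where 34.3% of all genes lay below and 14.4% above. Quantile normalization moved the median to -0.02, with 29 genes below 0 and 17 above, so the direction of many single genes depended on the scaling. The lowest adjusted p was that of PSMC5, an ATPase of the base, at 213 and 227 FPKM in GFP cells and 179 and 187 in G13R cells (-0.27 ± 0.08, adjusted p = 0.182).

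After serum 0 of 46 genes were called by limma, with 0.823% of all genes called. At an unadjusted p under 0.05, 4 were higher and 12 lower in G13R cells, again without a count over all genes. The median was -0.13 against -0.03 over all genes. Both G13R libraries lay above both GFP libraries for 9 of the 46 genes and below for 25, where 22.6% and 29.4% of all genes did so. PSMG4 came nearest to a call, at 9.51 and 8.90 FPKM in GFP cells and 13.5 and 15.8 in G13R cells (0.61 ± 0.13, adjusted p = 0.0591). It was called with the filter at 5 FPKM, with quantile normalization and with the replicate block. PSMB4 was at 289 and 304 FPKM in GFP cells and 228 and 244 in G13R cells (-0.33 ± 0.08, adjusted p = 0.0727). It too was called with the replicate block. Without GFP serum replicate 1, 4 of the proteasome genes were called higher and 6 lower, PSMG4 and PSMB4 among them, while over all 12881 genes then tested the calls went from 107 to 1620 (707 higher and 913 lower).

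**Figure D5:**
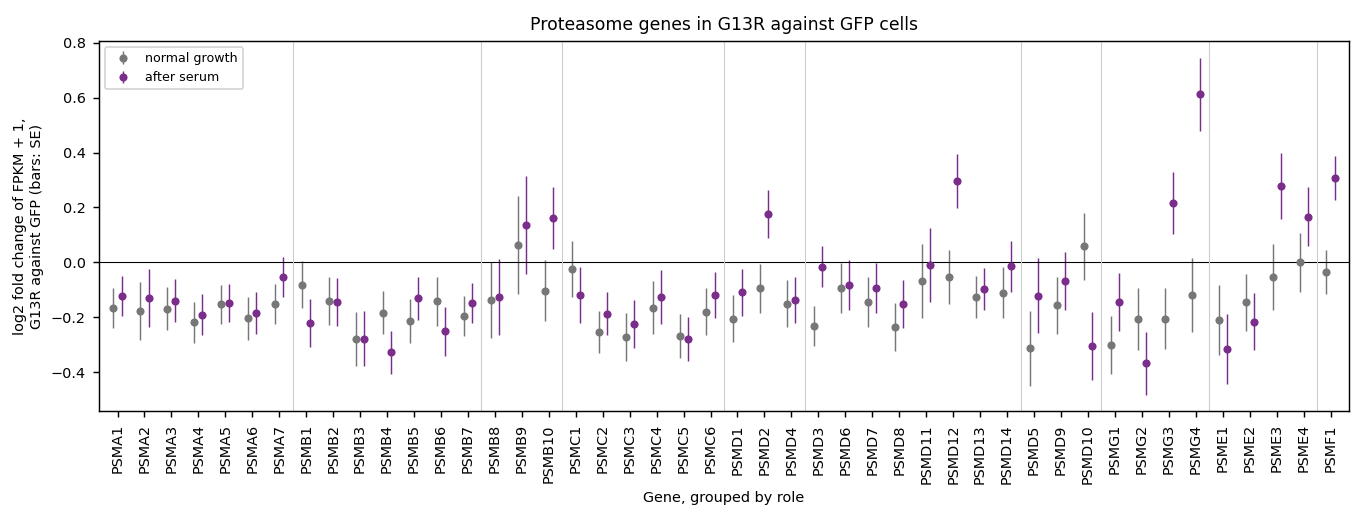
Log2 fold change of FPKM + 1 with its SE, G13R against GFP cells, under each of the 2 conditions, for the 46 tested genes grouped by role. No point reached an adjusted p under 0.05, and PSMG4 after serum, at 0.61, lies highest.

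The test of whether the serum response itself differed between the 2 kinds of cells called 0 of 46 genes in limma and 0% of all genes. At an unadjusted p under 0.05, 4 lay above 0 and 0 below, without a count over all genes. Those 4 were PSMG4 (0.73 ± 0.19, adjusted p = 0.266), PSMG3 (0.42 ± 0.16, adjusted p = 0.35), PSMD12 (0.35 ± 0.14, adjusted p = 0.384) and PSMF1 (0.34 ± 0.11, adjusted p = 0.308). The 8 genes called lower in GFP cells but not in G13R cells, PSMB2, PSMB7, PSMB10, PSMC4, PSMC6, PSMD7, PSMD9 and PSMG4, are therefore not shown to respond differently. PSMF1, which inhibits the core in vitro, was at 79.9 and 76.4 FPKM in GFP cells in normal growth against 67.3 and 67.9 after serum, but at 75.7 and 76.7, then 86.3 and 81.4 FPKM in G13R cells. Its serum libraries lay below in GFP cells and above in G13R cells without overlap, and neither response was called (-0.21 ± 0.08, adjusted p = 0.0762, and 0.14 ± 0.08, adjusted p = 0.287). Without GFP serum replicate 1 the difference was called for 1 proteasome gene, PSME3, and for 486 of all 12881 genes then tested.

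Of 19 genes for proteins that bind the proteasome or deliver substrates to it, 8 fell and 0 rose in GFP cells, where 15.7% of all genes were called lower and 14.9% higher, with a median of -0.24 against 0.01 over all genes. UCHL5, a deubiquitinase of the proteasome, was at 21.6 and 17.2 FPKM, then 11.3 and 8.26 after serum (-0.92 ± 0.19, adjusted p = 0.00601), and ADRM1, the receptor that recruits it, at 423 and 448, then 308 and 285 FPKM (-0.55 ± 0.08, adjusted p = 0.000752). UBE3C, ZFAND2A, UBQLN1, ZFAND5 and RAD23B also fell, with log2 fold changes between -0.55 and -0.27. In G13R cells 1 of 19 fell, TXNL1 (-0.46 ± 0.09, adjusted p = 0.00869), with a median of -0.13, a share near the 4.62% of all genes called lower. POMP, the chaperone that matures the beta ring, was not called (-0.32 ± 0.11 and -0.25 ± 0.11).

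Among 14 genes for ubiquitin supply and for regulators of proteasome genes, whose median was -0.06 in GFP cells against 0.01 over all genes, DDI2, the protease that activates NFE2L1, fell in GFP cells (-0.69 ± 0.15, adjusted p = 0.0067). In G13R cells DDI2 was at -0.23 ± 0.15, without a call. NFE2L1 itself was at 99.4 and 109.7 FPKM in GFP cells in normal growth against 91.4 and 99.1 after serum, and at 91.98 and 93.04, then 91.3 and 97.02 in G13R cells, with no call (-0.13 ± 0.09 and 0.02 ± 0.09).

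Among 13 genes of antigen processing and the interferon gamma response, of which 12 could be tested, HLA-C (0.59 ± 0.19), TAP1 (0.51 ± 0.13) and TAPBP (0.47 ± 0.15) rose and NLRC5 (-0.60 ± 0.18) fell in GFP cells, 3 and 1 of 12 where 14.9% of all genes were called higher and 15.7% lower, with a median of 0.20. In G13R cells 1 of 12 rose, ERAP1 (0.43 ± 0.12, adjusted p = 0.0453), a share near the 8.26% of all genes called higher, with a median of 0.25. TAP1, the peptide transporter gene beside PSMB9, was at 8.53 and 7.94 FPKM in GFP cells in normal growth against 11.8 and 12.4 after serum, and at 7.91 and 8.76, then 11.7 and 11.1 in G13R cells (0.41 ± 0.13, adjusted p = 0.0658). IRF1, a transcription factor of the interferon response, was not called in either (0.23 ± 0.14 and 0.23 ± 0.14).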

How the data were processed

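The authors deposited 1 table of FPKM values per gene and library, made with TopHat2 2.0.13 and Cufflinks 2.2.1 and with hg19 and BDGP5 named as builds, per the submitters' processing notes. The gene annotation and strand setting are not given in the sources used here. Column names gave the library, C being read as normal growth, and 0 columns had no match. Of 148 olfactory receptor genes, 81.8% spanned a multiple of 3 as end minus start, so starts were taken to count from 0 and 1 was added.

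FPKM keeps no read counts: at most 17.0% of genes under 0.25 FPKM lay at 1 common ratio between libraries, so reads were not recovered and depth is unknown. For the 12996 genes that reached 1 FPKM in 2 or more libraries, limma 3.58.1 (R 4.3.3) was fitted to log2(FPKM + 1) over all 8 libraries, with an intensity trend, 1 mean per group and 4 residual degrees of freedom, by a script checked on simulated data. A gene was called at a Benjamini-Hochberg adjusted p under 0.05 over all genes tested. Errors of log2 fold changes are SE, and fold changes of low genes are understated. Alternatives were pseudocount, filter, scaling, trend, libraries fitted, a replicate block and leaving out each library.

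The members and lists were chosen with earlier results of these data known. Values in every library are given for called members (up to 12 of largest change per comparison), catalytic subunits and the extremes of level in each role. Of the 48 members, 11 share over 20% of their 50-base windows with another gene and 18 overlap another gene's span. Some genes of the lists are not reported here.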

Additional observations from a re-analysis of the deposited data

How the results depend on the processing

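For the serum response of GFP cells, the count of proteasome genes called higher (2) was 1 with the filter at 5 FPKM and 2 to 3 without 1 library. The count called lower (21) was 13 with quantile normalization, 13 with the compared libraries alone and 12 without the intensity trend. Over all genes, lower calls went from 2044 to 1924, 1468 and 1633 in these settings. The median (-0.258) was -0.280 with median-ratio scaling, -0.129 with quantile normalization and -0.258 to -0.231 without 1 library. For G13R cells, the count called higher (2) was 1 without a filter, 1 at 5 FPKM, 1 without the trend and 1 to 2 without 1 library. The count called lower (13) was 6 without a filter, 2 without the trend and 0 to 17 without 1 library. The median (-0.162) was -0.212 with median-ratio scaling, -0.135 with quantile normalization and -0.212 to -0.123 without 1 library.

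For G13R against GFP cells in normal growth, the median (-0.155) was -0.090 with median-ratio scaling, -0.017 with quantile normalization and -0.193 to -0.100 without 1 library. After serum, 1 gene was called higher at 5 FPKM and 1 with quantile normalization, and 0 to 4 higher and 0 to 6 lower without 1 library. The median (-0.127) was -0.091 with median-ratio scaling, -0.080 with quantile normalization and -0.150 to -0.094 without 1 library. For the difference of responses, 0 to 1 genes were called higher without 1 library. Its median (0.047) was 0.019 with median-ratio scaling, -0.045 with quantile normalization, a change of sign, and 0.006 to 0.087 without 1 library. The cause of these shifts was not tested. Where a group was left with 1 library, that library was assumed to vary like the other groups.

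All 23 called changes in GFP cells and all 15 in G13R cells kept their sign in every alternative in which the gene was tested; 12 and 1 kept their call. PSMB9 was not tested at 5 FPKM. The labels give same-numbered libraries a shared number and no shared batch. The correlations of their deviations from the group means were all above 0, at 0.0169 to 0.121. Such values cannot exclude a shared batch. With the replicate block, calls over all genes in G13R against GFP cells went from 6 to 83 in normal growth and from 107 to 403 after serum. With the replicate block, 4 proteasome genes were called higher and 24 lower in the GFP serum response. Over all genes, that response then had 1988 higher and 2121 lower calls, against 1941 and 2044 without the block. In G13R against GFP cells after serum, the block gave 1 proteasome gene called higher (PSMG4) and 2 lower (PSMB4 and PSMC5). Depth is unknown, so low values such as those of PSMB9 carry no counting interval.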
